A study of Mus musculus with 62 samples.

Results

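Cell cycle and DNA replication genes were followed in whole hearts of female mice during melanoma growth. The 35 genes were taken by symbol, and all 35 were found among the 47643 gene symbols of the deposited table and among the 15290 symbols tested. They comprise 3 G1 cyclins, 10 genes of replication and nucleotide supply, 9 mitotic cyclins and kinases, 9 genes of the spindle, kinetochore and cytokinesis, and 4 genes of chromosome structure, proliferation marking and mitotic exit. The mice were injected with melanoma cells that cause cachexia, the wasting of body tissue (CAC), with melanoma cells that do not (NCAC), or with a mock (Con), and hearts were taken at weeks 2, 4, 6 and 8. Each of the 12 groups had 5 libraries, except CAC at week 8 with 7 and Con at week 4, in which 4 were used. The labels give every group the strain C57BL6/J, female sex and an age of 2 months, whereas the series' design text names nude mice, and the labels do not name the melanoma lines. Stranded mRNA libraries were sequenced, and the labels call the libraries biological replicates.

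Division is driven by cyclins that switch on cyclin-dependent kinases (CDKs) in turn. D-type cyclins act in G1, cyclin E at entry into S phase, and cyclins A and B with Cdk1 carry the cell into mitosis. The MCM helicase, the sliding clamp Pcna and the nucleotide enzymes Rrm1, Rrm2 and Tyms serve DNA synthesis, while kinesins, kinetochore proteins and the ubiquitin ligase factors Cdc20 and Ube2c move and separate the chromosomes. In the adult mouse heart cardiomyocytes seldom divide, so transcripts of mitotic genes are scarce there. Many mitotic genes carry CCAAT boxes, the target of NF-Y, and a cell cycle homology region with the core TTTGAA, the target of MuvB complexes, in their promoters.

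Promoter sequences are shown for 4 mitotic members that have both elements and for the replication members Rrm2 and Pcna, which have a CCAAT box and no TTTGAA in the window. The sequences run from 150 bases before to 30 bases after the RefSeq transcription start on GRCm38.p6, 5′ to 3′ on the gene's strand, with TTTGAA and CCAAT on either strand in capitals.
Cdk1 (chr10:69352883-69353062, minus strand): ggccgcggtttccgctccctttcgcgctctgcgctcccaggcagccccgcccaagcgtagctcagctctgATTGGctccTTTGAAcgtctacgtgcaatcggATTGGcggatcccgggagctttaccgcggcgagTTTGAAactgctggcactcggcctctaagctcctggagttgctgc
Ccnb2 (chr9:70421525-70421704, minus strand): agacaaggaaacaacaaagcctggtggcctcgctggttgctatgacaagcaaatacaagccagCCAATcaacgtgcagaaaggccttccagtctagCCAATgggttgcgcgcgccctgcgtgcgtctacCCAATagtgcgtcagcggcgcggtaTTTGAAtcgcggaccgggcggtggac
Top2a (chr11:99024160-99024339, minus strand): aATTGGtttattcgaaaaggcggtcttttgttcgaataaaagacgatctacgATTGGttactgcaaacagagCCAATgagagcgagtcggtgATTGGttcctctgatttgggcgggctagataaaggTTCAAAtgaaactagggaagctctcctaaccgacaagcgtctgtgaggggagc
Cdc20 (chr4:118437314-118437493, minus strand): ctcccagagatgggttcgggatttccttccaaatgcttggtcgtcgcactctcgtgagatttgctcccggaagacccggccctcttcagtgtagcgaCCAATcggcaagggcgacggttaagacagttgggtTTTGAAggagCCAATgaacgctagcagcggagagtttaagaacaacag
Rrm2 (chr12:24708104-24708283, plus strand): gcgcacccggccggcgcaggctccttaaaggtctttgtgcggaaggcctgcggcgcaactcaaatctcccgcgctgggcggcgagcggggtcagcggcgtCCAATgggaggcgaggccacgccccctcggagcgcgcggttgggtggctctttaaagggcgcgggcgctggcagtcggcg
Pcna (chr2:132253151-132253330, minus strand): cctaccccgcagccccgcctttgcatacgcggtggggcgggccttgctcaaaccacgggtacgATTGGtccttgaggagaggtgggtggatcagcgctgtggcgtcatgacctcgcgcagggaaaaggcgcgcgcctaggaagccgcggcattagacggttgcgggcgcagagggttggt

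RefSeq promoter windows, from 250 bases before to 50 after the start, were matched by symbol for 28 of the 35 members. Ccnd1, Ccnd2, Mcm4, Ccna2, Aurkb, Kif20a and Tpx2 had no entry. On either strand, TTTGAA was in the windows of 14 of the 28 members (50.0%), against 20.2% of the 27025 genes in the table. CCAAT was present in 24 of the 28 (85.7%), against 41.1% of all genes. The E2F-type letters TTTGGCGC, TTTCCCGC, TTTCGCGC or TTTGCCGC were in 5 of the 28 (17.9%), against 2.605% of all genes. Those 5 were Mcm3, Mcm5, Mcm6, Mcm7 and Cdk1, so the E2F-type letters lay mainly in helicase genes and TTTGAA mainly in mitotic genes. These matches describe letters in a window and show no binding.

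Expression was deposited as TPM, a share of each library's transcripts that takes transcript length into account, scaled so that every library has the same total. Depth estimated from the steps between TPM values was 25253812 to 49094776 reads per library, with a median of 46170453. At that depth the mitotic members had few reads: medians over the 61 libraries were 175 reads for Mki67, 49.0 for Ccna2, 16.0 for Hmmr and 15.0 for Bub1 and Ccnb1, whereas Ccnd1 had 1735. The cardiomyocyte myosin gene Myh6 stood between 3419 and 8033 TPM in these libraries. The Con week 4 library with replicate number 2 was left out: 89.1% of its TPM was mitochondrial, against 49.3 to 61.1% elsewhere, and its Myh6 was 612 TPM. Fold changes below are differences of group means of log2(TPM + 0.1), which understate the change of genes near or under 0.1 TPM, with a standard error (SE). Limma p-values were adjusted by Benjamini-Hochberg over all 15290 genes, and a gene was called at an adjusted p under 0.05. The median of all genes shifted by 0.23 (log2) between CAC and Con at week 6 and by 0.21 at week 8, so values after median-of-ratios rescaling, which removes a common shift, are given beside each value of CAC against Con whose call they change.

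Members were called between CAC and Con at weeks 4, 6 and 8, and mitotic genes made up most of those called lower. Against Con, 13 of the 35 members were lower and 0 higher in CAC at week 4, 20 lower and 3 higher at week 6, and 16 lower and 4 higher at week 8 (limma, adjusted p under 0.05). Among all genes, 2.37% were called lower at week 4, 5.48% at week 6 and 9.84% at week 8, and 10.6%, 43.4% and 44.8% were called higher. In either direction 13% were called at week 4, 48.9% at week 6 and 54.6% at week 8. The members' median log2 fold change was -0.24, -0.86, -0.73 and -0.57 at weeks 2, 4, 6 and 8. That of all genes was 0.11, 0.10, 0.23 and 0.21. At week 2 limma called 0 members, with 1 at an unadjusted p under 0.05, while voom on recovered reads also called 0; 1.42% of all genes were called higher and 0.00654% lower. CAC replicate 3 of week 2 had the lowest depth of the libraries used, 25253812 reads against a median of 46170453. CAC replicates 2 and 5 of that week had the next lowest. Whether depth limited the calls at week 2 was not tested, and the same libraries enter every comparison with week 2 of CAC. Each week has its own Con group, and all groups share 1 estimate of the spread. Of the 15 members with a promoter window that were called lower at week 6, 11 had TTTGAA in it, as did 3 of the 13 others. The lower members were mostly mitotic genes and TTTGAA lay mainly in such genes, so the letters and the role cannot be told apart here.

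**Figure D1:**
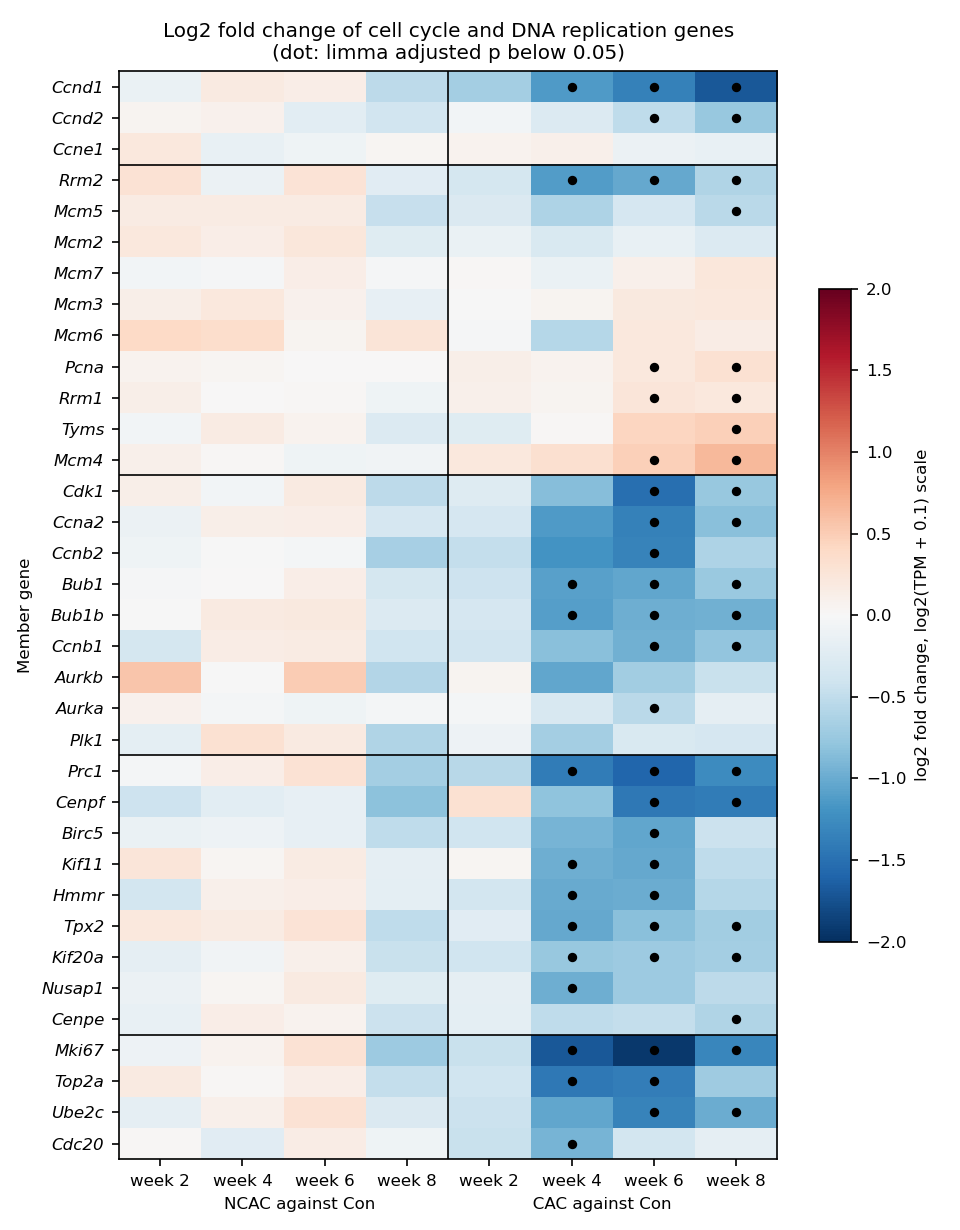
Log2 fold change (colour) of the 35 members, ordered by role and then by their value at week 6, for NCAC and CAC against Con at weeks 2, 4, 6 and 8, with a dot where the limma adjusted p was under 0.05. The CAC columns hold 13, 23 and 20 dots at weeks 4, 6 and 8, and the NCAC columns hold 0.

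The counts at weeks 4 and 8 rested on few libraries, and the count at week 6 did not. Without CAC replicate 2 the 13 lower calls of week 4 became 4, and without Con replicate 4 they became 2. Con replicate 4 had the highest value of its group in 29 of the 35 members, and Rrm2 and Ccnd1 were the 2 genes called with any library left out. The 16 lower calls of week 8 became 9 without CAC replicate 1 or CAC replicate 6, 10 without Con replicate 2 and 6 without Con replicate 3, the highest of its group in 29 members. At week 8 only Bub1b, Ccnd1, Ccnd2, Cenpf, Mcm4, Mki67, Pcna and Prc1 were called with any library left out. At week 6 the number of lower calls stayed between 18 and 20 with any library left out. The single calls of week 6 that were lost without some library were those of Aurka, Rrm1, Tpx2, Pcna and Kif20a. The 3 higher calls of week 6 became 1 without CAC replicate 1 or Con replicate 1, and the 4 of week 8 became 2 without Con replicate 1 or Con replicate 4.

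Mki67, which encodes the proliferation marker Ki-67 (chromosome 7, 135689784 to 135716361), had the largest fall of any member at week 6 on this scale. The Con libraries of week 6 held 0.741, 0.871, 0.942, 0.963 and 1.04 TPM of Mki67. The CAC libraries held 0.0608, 0.115, 0.181, 0.217 and 0.322 TPM. Each CAC library was below every Con library, and the means were 0.179 ± 0.10 TPM (SD, n = 5) and 0.911 ± 0.113 TPM (SD, n = 5). The log2 fold change was -1.93 ± 0.45 (SE), with a limma adjusted p of 0.00048. In reads, the CAC libraries had 13 to 64 and the Con libraries 174 to 240. A lower level in bulk tissue can mean fewer dividing cells or less of the transcript in each, and these cannot be told apart here.

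Mki67 was also lower at the neighbouring weeks, with more spread. At week 4 the CAC libraries held 0.108, 0.279, 0.302, 0.413 and 0.502 TPM against 0.625, 0.948, 1.18 and 2.70 TPM in Con, without overlap. The log2 fold change there was -1.69 ± 0.48 (limma adjusted p = 0.014), and with CAC replicate 2 or Con replicate 4 left out it was not called. At week 8 the CAC libraries spread from 0.102 through a median of 0.585 to 1.41 TPM, against 0.733 to 2.52 TPM in Con. The groups overlapped at that week, although the means, 0.571 ± 0.449 (n = 7) and 1.36 ± 0.707 TPM (n = 5), still differed, by -1.31 ± 0.42 in log2 terms (limma adjusted p = 0.0076). At week 2 the ranges overlapped and the log2 difference was -0.44 ± 0.45 (limma adjusted p = 0.60).

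Top2a, the topoisomerase that untangles replicated chromosomes, was at 0.108, 0.113, 0.162, 0.180 and 0.261 TPM in CAC at week 6. In Con the values were 0.429, 0.536, 0.576, 0.657 and 0.731 TPM, so the groups were apart. The log2 fold change was -1.38 ± 0.40 (limma adjusted p = 0.0033), and at week 4 it was -1.43 ± 0.42 (limma adjusted p = 0.017). At week 8 the difference was -0.72 ± 0.37 (limma adjusted p = 0.092), and after rescaling it was -0.88 and called. Ube2c, which tags mitotic proteins for destruction, fell at week 6 by 1.33 and at week 8 by 0.99 in log2 terms (limma adjusted p = 0.0049 and 0.021). Cdc20, the activator of the anaphase-promoting complex, fell at week 4 by 0.93 (limma adjusted p = 0.0074) and was at -0.37 at week 6 and -0.18 at week 8, uncalled in both. After rescaling the value at week 6 was -0.59 and called (limma adjusted p = 0.038).

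Among the mitotic cyclins and kinases, 2 of 9 fell at week 4, 7 at week 6 and 5 at week 8, and 0 rose. Cdk1, the kinase that drives entry into mitosis, held 0.149, 0.205, 0.223, 0.243 and 0.265 TPM in CAC at week 6. The Con libraries held 0.536, 0.755, 0.874, 0.922 and 0.975 TPM, so the lowest Con library stood above the highest CAC library. The log2 fold change of Cdk1 was -1.51 ± 0.35 (limma adjusted p = 0.00039) at week 6 and -0.75 ± 0.33 (limma adjusted p = 0.046) at week 8. Its level in CAC at week 8 was 0.285 to 0.956 TPM, with a median of 0.442, against 0.626 to 1.18 TPM in Con. Of the 7 CAC libraries, 1 lay inside the Con range and 6 below it. At week 4 the difference, -0.86 ± 0.37, was not called (limma adjusted p = 0.12).

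Ccna2, cyclin A2, was at 0.137, 0.150, 0.159, 0.247 and 0.298 TPM in CAC at week 6 and at 0.589 to 0.696 TPM, with a median of 0.669, in Con. The Con libraries of that week lay within a narrow band well above CAC, and the log2 fold change was -1.36 ± 0.38 (limma adjusted p = 0.0027). At week 4 the difference of -1.14 ± 0.40 missed the threshold (limma adjusted p = 0.051) and after rescaling it was called at -1.22. Cyclin B1, from Ccnb1, fell by 0.97 at week 6 and 0.80 at week 8 (limma adjusted p = 0.018 and 0.033). Its CAC libraries of week 6 had only 2 to 7 reads, so the size of that fall is poorly known. Ccnb2 fell at week 6 by 1.34 (limma adjusted p = 0.0049), and its -1.19 at week 4 (limma adjusted p = 0.052) was called after rescaling, at -1.28. The checkpoint kinase Bub1 fell in all of weeks 4, 6 and 8 (-1.09, -1.04 and -0.75), and so did its relative Bub1b (-1.10, -0.98 and -0.96). The mitotic kinase gene Aurka fell at week 6 (-0.54, limma adjusted p = 0.028), whereas Aurkb, at -1.03, -0.70 and -0.45, and Plk1, at -0.67, -0.31 and -0.34, were not called in any week.

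**Figure D2:**
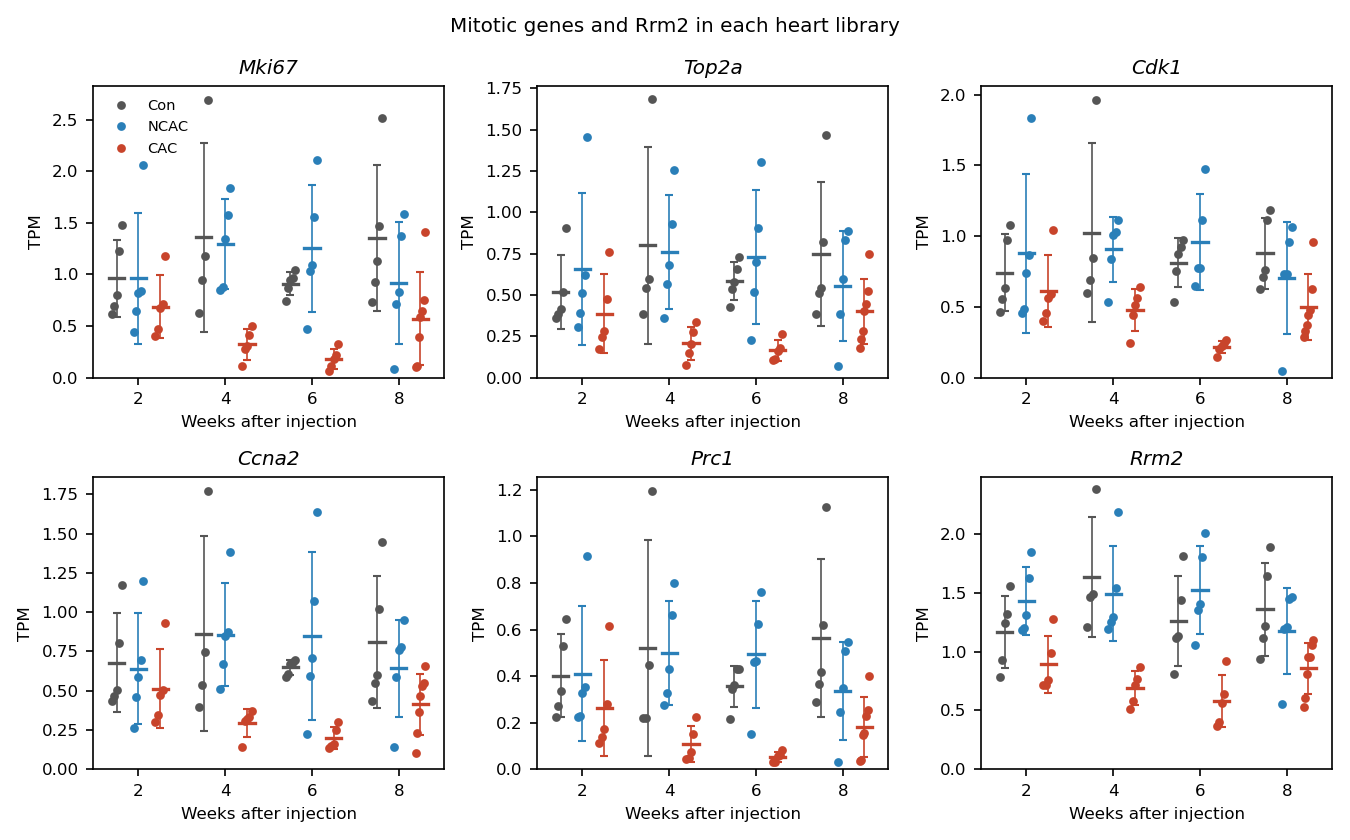
TPM (linear axis) of 6 members in each library by weeks after injection, with Con in grey, NCAC in blue and CAC in red; bars are group means with SD. At week 6 the CAC points of Mki67, Top2a, Cdk1, Ccna2 and Prc1 lie below all Con points, and at week 8 the arms overlap.

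Spindle, kinetochore and cytokinesis genes fell in 6 of 9 cases at week 4, 7 at week 6 and 5 at week 8, and 0 rose. Prc1, which bundles microtubules between separating chromosomes, had the largest fall of this group at week 6. Its CAC libraries held 0.0286, 0.0292, 0.0565, 0.0622 and 0.0802 TPM. The Con libraries held 0.214, 0.345, 0.360, 0.430 and 0.432 TPM. The ranges were apart, and the log2 fold change was -1.58 ± 0.40 (limma adjusted p = 0.00098). In counts Prc1 had 5 to 13 reads per CAC library and 41 to 82 per Con library, and with voom, which adds no 0.1 TPM, the log2 fold change was -3.05. Prc1 also fell at week 4 (-1.39, limma adjusted p = 0.021) and at week 8 (-1.25, limma adjusted p = 0.0037).

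Kif11, the motor that pushes spindle poles apart, was at 0.149, 0.168, 0.176, 0.203 and 0.260 TPM in CAC and 0.365, 0.479, 0.528, 0.540 and 0.543 TPM in Con at week 6. No library of either arm reached into the other's range, and the fall was 1.02 in log2 terms (limma adjusted p = 0.00059). At week 4 it fell by 0.98 (limma adjusted p = 0.0083), and at week 8 the value was -0.51 (limma adjusted p = 0.055), which rescaling took to -0.67, called (limma adjusted p = 0.012). Tpx2, an activator of Aurora A on the spindle, fell in all of weeks 4, 6 and 8 (-1.02, -0.83 and -0.70; limma adjusted p = 0.040, 0.030 and 0.044). With 1 library left out at a time, these Tpx2 calls were lost in 4 of 9, 4 of 10 and 6 of 12 fits. Kif20a, a kinesin of cytokinesis, fell in these weeks too (-0.76, -0.73 and -0.68), and its call of week 4 was lost in 7 of 9 such fits. Hmmr, a hyaluronan receptor that also binds the spindle, fell at week 4 and at week 6 (-0.99 at the latter), Birc5, or survivin, at week 6 (-1.04), Nusap1 at week 4 (-0.98) and the kinetochore motor Cenpe at week 8 (-0.60). Birc5 at week 4 was at -0.93, and Nusap1 and Cenpe at week 6 were at -0.72 and -0.48, values that were called only after rescaling (limma adjusted p = 0.046, 0.030 and 0.030). Kif20a shares 29.3% of its exon bases with Cdc23 on the opposite strand. Whether the authors' counting used strand is not given in the sources used here, so reads of the pair may be mixed. The same holds for Ccnd1 and LTO1 (23.4%), Ube2c and Tnnc2 (22.8%), Ccna2 and Exosc9 (12.5%), and Prc1 and Rccd1 (11.1%).

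Cenpf, a large kinetochore protein, stood at a higher level than the other mitotic members, and its time course was not tested against theirs. Its mean over the 61 libraries was 3.81 TPM, against 0.186 TPM for Cenpe and 0.880 TPM for Mki67. At week 2 its CAC libraries held 3.01, 3.89, 5.82, 6.04 and 8.35 TPM and its Con libraries 2.74, 2.87, 3.92, 5.82 and 6.59 TPM. The arms overlapped then, at a log2 difference of 0.30 ± 0.42 (limma adjusted p = 0.71). At week 6 CAC held 0.769, 0.913, 1.35, 1.52 and 2.99 TPM and Con 2.59, 2.68, 2.79, 5.65 and 7.19 TPM, with 1 CAC library inside the Con range. The fall was 1.43 at week 6 and 1.40 at week 8 in log2 terms (limma adjusted p = 0.0043 and 0.0022).

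The summed level of the 22 mitotic members is given as a description of each library, in which genes with more TPM weigh more. It was 11.8 to 17.2 TPM in Con and 4.25 to 7.19 TPM in CAC at week 6, with medians of 13.4 and 5.30 TPM. The sums at week 8 were 10.9 to 30.7 TPM in Con and 6.56 to 16.6 TPM in CAC. At week 4 they were 10.8 to 28.8 TPM in Con and 4.50 to 10.4 TPM in CAC. The arms were apart at weeks 4 and 6 and overlapped at week 8. Cenpf is included in these sums and was a large part of some. At week 6 it held 7.19 of 15.2 TPM in Con replicate 1 and 2.99 of 7.19 TPM in CAC replicate 4. The sums of the 9 mitotic cyclins and kinases, which leave Cenpf out, were 3.16 to 4.28 TPM in Con and 1.18 to 1.86 TPM in CAC at week 6. The summed replication members, to which Pcna contributed most, were at 42.1 to 50.3 TPM in Con and 48.4 to 63.1 TPM in CAC at week 6, with an overlap. After rescaling these sums were 46.9 to 54.7 and 46.6 to 54.5 TPM.

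**Figure D3:**
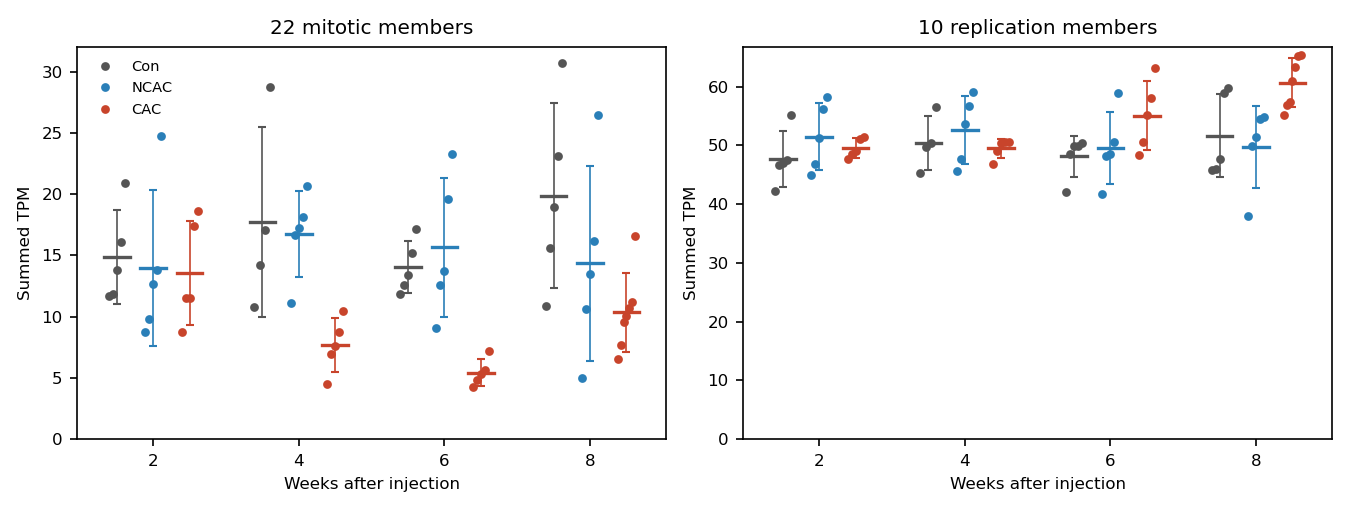
Summed TPM of the 22 mitotic members (left) and the 10 replication members (right) in each library by weeks after injection, with group means and SD. At week 6 the mitotic sums of CAC, 4.25 to 7.19 TPM, lie below those of Con, 11.8 to 17.2 TPM, while the replication sums overlap.

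The D-type cyclin members Ccnd1 and Ccnd2 were called lower, Ccnd1 from week 4 and Ccnd2 from week 6. Ccne1, cyclin E1, was not called in any week (log2 differences of 0.07, 0.11, -0.12 and -0.14). Ccnd1, which encodes cyclin D1 (chromosome 7, 144929931 to 144939925), was at 4.71, 5.74, 6.10, 6.36 and 8.23 TPM in CAC at week 6. In Con it was at 11.5, 14.3, 17.0, 18.0 and 19.6 TPM. The arms were apart, and the log2 fold change was -1.35 ± 0.28 (limma adjusted p = 8.5e-05). It was -1.13 ± 0.30 at week 4 (limma adjusted p = 0.0073) and -1.69 ± 0.26 at week 8 (limma adjusted p = 3.1e-07). At week 8 the Con libraries held 17.1 to 25.5 TPM, and 6 of the 7 CAC libraries held 3.98 to 8.02 TPM. CAC replicate 3 alone, at 19.0 TPM, lay within the Con range. At week 2 the value was -0.68 ± 0.28 and uncalled (limma adjusted p = 0.17).

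Ccnd2, cyclin D2, was at 14.3, 15.7, 16.0, 16.2 and 17.8 TPM in CAC and 19.4, 20.7, 22.6, 25.3 and 25.6 TPM in Con at week 6. In week 8 the CAC range was 11.8 to 20.2 TPM, with a median of 16.6, and the Con range 24.9 to 28.9 TPM, with a median of 27.4. The arms were apart in both weeks. The log2 fold change was -0.50 ± 0.13 at week 6 and -0.77 ± 0.12 at week 8 (limma adjusted p = 0.0018 and 1.0e-06). The arms of Mcm4 did not overlap at week 8 either. How many of all genes had no overlap at that week was not counted.

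Replication and nucleotide supply genes moved in both directions. At week 6, 3 of 10 were called higher and 1 lower, beside 43.4% and 5.48% of all genes, and at week 8, 4 higher and 2 lower, beside 44.8% and 9.84%. The share called higher was thus no larger than that of all genes. Mcm4, a helicase subunit (chromosome 16, 15623897 to 15637400), held 5.64, 5.85, 5.87, 6.63 and 7.87 TPM in CAC at week 6. The Con libraries held 4.44, 4.45, 4.52, 4.55 and 4.60 TPM, all below CAC. The log2 fold change was 0.48 ± 0.12 (limma adjusted p = 0.00065) at week 6 and 0.65 ± 0.11 (limma adjusted p = 1.6e-06) at week 8, and after rescaling it was 0.24 and 0.44, still called. Mcm4 was the single member called higher in CAC against Con at weeks 6 and 8 on both the deposited and the rescaled scale.

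None of the other 5 helicase subunits was called higher against Con, and their differences from Mcm4 were not tested. Mcm5 was at -0.62 at week 4 and -0.34 at week 6, both uncalled, and fell by 0.54 at week 8 (limma adjusted p = 0.027). After rescaling Mcm5 was called at week 4 (-0.72) and week 6 (-0.57). Mcm2 was at -0.14 and -0.27, uncalled, and after rescaling its -0.47 at week 8 was called. Mcm3, at 0.20 and 0.21, Mcm6, at 0.20 and 0.16, and Mcm7, at 0.10 and 0.23, were uncalled at both weeks. Mcm6 spread from 0.618 to 4.23 TPM among the 5 CAC libraries of week 6 and from 0.837 to 3.21 TPM among the 5 Con libraries, so its difference there is poorly known.

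Ribonucleotide reductase split between its subunits. Rrm2, the subunit made in S phase, was at 0.369, 0.403, 0.561, 0.641 and 0.918 TPM in CAC and 0.805, 1.12, 1.13, 1.44 and 1.81 TPM in Con at week 6. Only the highest CAC library reached the Con range, and the log2 fold change was -1.02 ± 0.23 (limma adjusted p = 0.00031), beside -1.11 ± 0.25 at week 4 and -0.60 ± 0.21 at week 8 (limma adjusted p = 0.0014 and 0.015). Rrm1, the large subunit, rose by 0.24 at week 6 and 0.20 at week 8 (limma adjusted p = 0.029 and 0.042) on the deposited scale. After rescaling these values were -0.00012 and -0.0066, so the rise was no larger than the common shift.

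Pcna, the sliding clamp, was at 24.0, 24.9, 26.9, 26.9 and 28.6 TPM in CAC and 21.0, 21.7, 22.3, 23.2 and 24.9 TPM in Con at week 6. The arms overlapped, and the rise of 0.21 (limma adjusted p = 0.023) became -0.028 after rescaling. At week 8 its rise was 0.30 (limma adjusted p = 0.00054) and 0.09 after rescaling, uncalled. Tyms, which makes thymidylate, rose by 0.48 ± 0.18 at week 8 (limma adjusted p = 0.021), and its rescaled 0.29 was uncalled. At week 6 its CAC libraries, 0.634 to 0.850 TPM, lay above the Con libraries, 0.388 to 0.631 TPM, by a small gap, with a log2 difference of 0.43 ± 0.19 (limma adjusted p = 0.060).

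**Figure D4:**
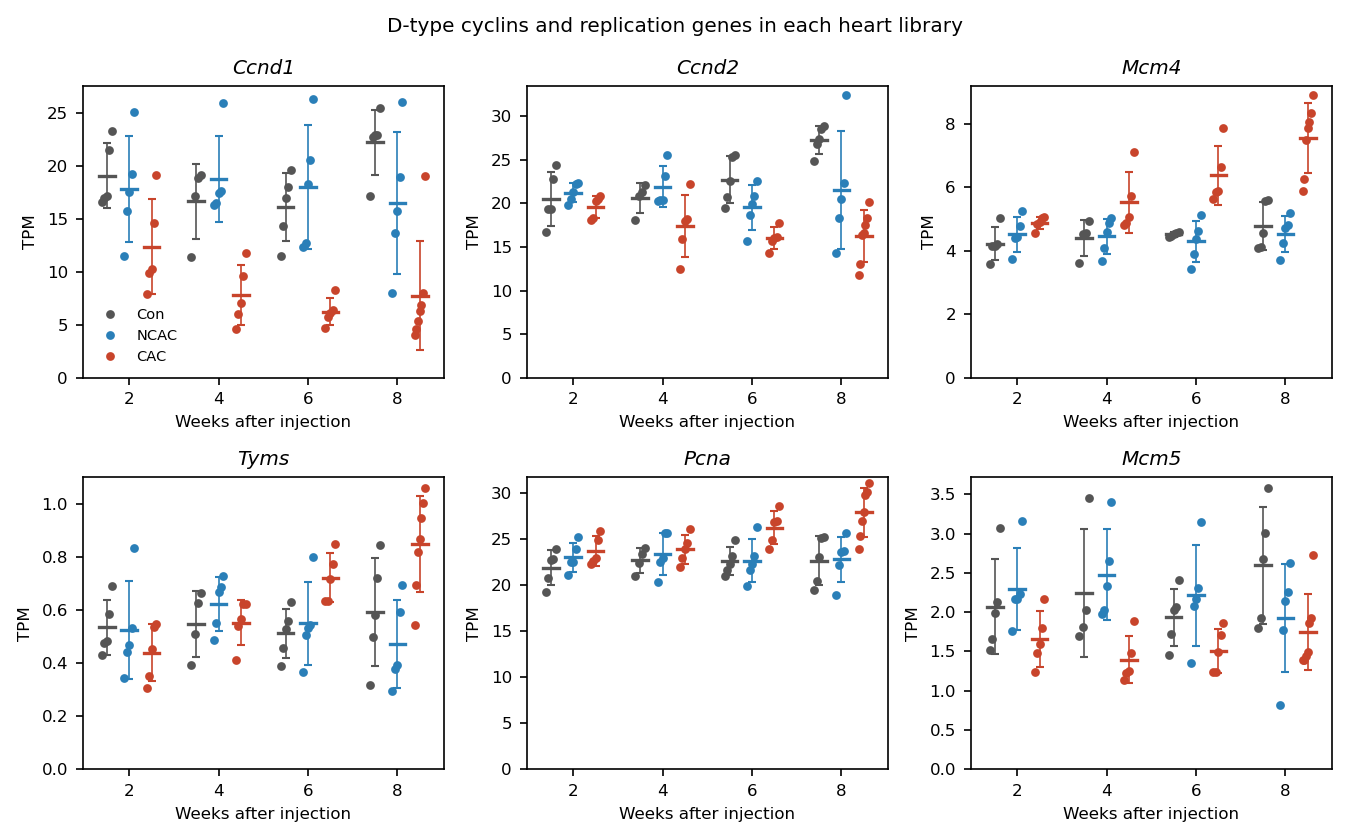
TPM (linear axis) of Ccnd1, Ccnd2, Mcm4, Tyms, Pcna and Mcm5 in each library by weeks after injection, with group means and SD. Ccnd2 of CAC lies below, and Mcm4 of CAC above, all Con points at weeks 6 and 8, while the Pcna ranges overlap.

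After rescaling, 17 members were lower at week 4, 24 lower and 1 higher at week 6, and 19 lower and 1 higher at week 8. Over all genes the rescaled split at week 6 was 2629 higher and 2528 lower, against 6637 and 838 as deposited. The 17 mitotic members called lower at week 6 were all lower on both scales, whereas the rises of Pcna and Rrm1 were not called after rescaling. Voom on the recovered reads, an alternative chosen after seeing the data, gave larger falls for the genes with few reads, such as -2.79 for Mki67 and -2.92 for Bub1 at week 6.

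**Figure D5:**
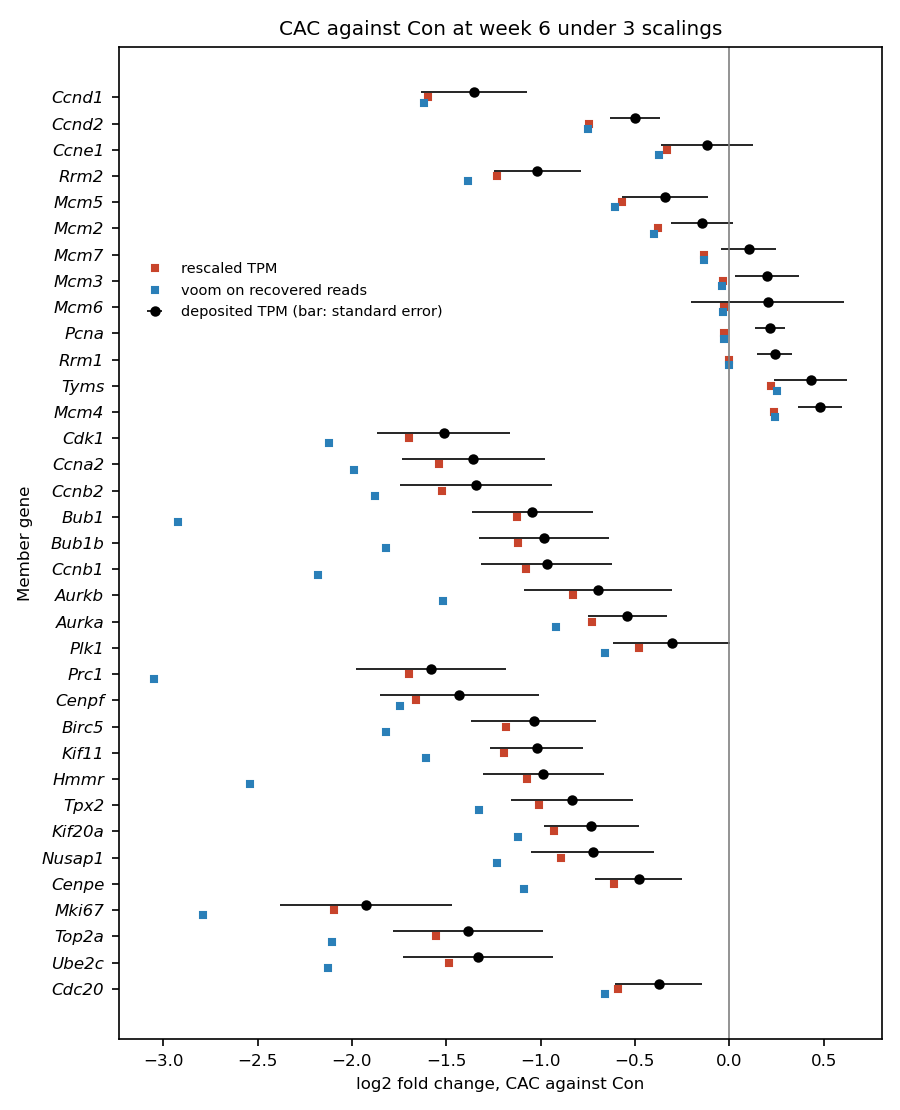
Log2 fold change of each member in CAC against Con at week 6 from deposited TPM (black, with SE), rescaled TPM (red) and voom on recovered reads (blue). Rescaling moves every point to the left, which takes Pcna and Rrm1 to about 0 and leaves Mcm4 and Tyms above 0.

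No member passed the test in hearts of mice with the non-cachectic cells: limma called 0 of the 35 members in NCAC against Con at weeks 2, 4, 6 and 8. At an unadjusted p under 0.05 there were 0, 0, 0 and 2, and voom also called 0 in every week. The 2 were Ccnd2 (-0.39) and Mcm5 (-0.46) at week 8. Of all genes, 0%, 0%, 0% and 0.445% were called. NCAC replicate 3 of week 8 had the lowest value of its group in 34 of the 35 members, with 0.0806 TPM of Mki67 against 0.713 to 1.58 TPM in the other NCAC libraries. At week 6 the Mki67 values of NCAC were 0.474, 1.04, 1.09, 1.55 and 2.11 TPM, which enclosed the whole Con range.

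The comparison of CAC with NCAC shares its CAC libraries with the comparison above, so the values are given side by side and not as independent evidence. Against NCAC, 0 members were higher and 19 lower at week 4, 3 higher and 21 lower at week 6, and 5 higher and 2 lower at week 8, where 14.6%, 48.4% and 59.9% of all genes were called in either direction. Called higher were 11.8%, 41.3% and 51.6% of all genes, and called lower 2.83%, 7.08% and 8.36%. Mki67 differed by -1.76 from NCAC at week 4 and -2.22 at week 6 (limma adjusted p = 0.0058 and 8.2e-05), beside -1.69 and -1.93 from Con. All 9 spindle, kinetochore and cytokinesis genes fell at week 6, by 0.55 (Cenpe) to 1.87 (Prc1) on the log2 scale. At week 8 Mki67 was at -0.57 (limma adjusted p = 0.24), and Ccnd1 (-1.17) and Ccnd2 (-0.38) were the 2 members that fell. Mcm4, Tyms, Mcm3, Pcna and Rrm1 were the 5 that rose at week 8, and after rescaling 2 members were higher and 6 lower. Rescaled counts were 0 higher and 23 lower at week 4 and 1 higher and 26 lower at week 6.

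Leaving out single libraries moved these counts as well. The 19 lower calls of week 4 became 12 without CAC replicate 2 and 11 without NCAC replicate 2. The 3 higher calls of week 6 became 1 without CAC replicate 1, NCAC replicate 1 or NCAC replicate 5. The 2 lower calls of week 8 became 4 without CAC replicate 3, 1 without NCAC replicate 5 and 9 without NCAC replicate 3, the library with the lowest values. At week 2 limma called 0 members of CAC against NCAC, with 3 at an unadjusted p under 0.05 and 0 called by voom; 0.556% of all genes were called.

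Within the CAC arm, week 8 against week 2 gave 4 members higher and 2 lower, where 38.1% of all genes were called higher and 9.11% lower, 47.2% in all. Mcm4 (0.61), Tyms (0.81), Pcna (0.23) and Rrm1 (0.27) rose, and Ccnd1 (-0.79) and Cenpf (-1.19) fell. After rescaling 2 members were higher. Mitotic genes stood higher at week 8 than at week 6, for example 0.571 against 0.179 TPM of Mki67 and 0.498 against 0.217 TPM of Cdk1. None of these steps passed the adjustment: limma called 0 members, with 15 at an unadjusted p under 0.05, all higher at week 8, and voom called 0, with 6. Of all genes 0.935% were called. In week 8 against week 2 of Con and of NCAC, limma and voom each called 0 members, with 1 and 0 at an unadjusted limma p under 0.05, where 0.935% and 0% of all genes were called.

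The difference between CAC and Con itself changed from week 2 to week 8 in 5 members, where 21.8% of all genes were called, 15.5% upward and 6.34% downward. The change was downward for Ccnd1 (-1.01), Ccnd2 (-0.71) and Cenpf (-1.70) and upward for Mcm4 (0.44) and Tyms (0.72). In that order the limma interaction gave adjusted p = 0.048, 0.0038, 0.027, 0.041 and 0.041. Mean Cenpf was higher under CAC than under Con at week 2 and lower at week 8, and mean Tyms the reverse. With single libraries left out, the number of calls ranged from 0 to 2 higher and 1 to 3 lower, and Ccnd2 alone was called in every case. For week 8 minus week 4 and week 8 minus week 6, limma called 0 members, with 4 and 0 at an unadjusted p under 0.05, and voom called 1 and 0. Of all genes 4.26% and 0.0654% were called.

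Genes around the members were read from 5 lists, beside 43.4% of all genes called higher and 5.48% lower at week 6, and 44.8% and 9.84% at week 8. The median log2 fold change at week 8 was -0.29 for other mitotic genes, 0.16 for other replication genes, 0.37 for genes that restrain division, 0.04 for other G1 and G2 regulators and 0.14 for E2F, DREAM and MuvB factors, beside 0.21 for all genes. Of 25 other mitotic genes, 6 fell in CAC against Con at week 4, among them Pbk (-2.06). At week 6, 8 fell and 1 rose, and at week 8, 5 fell and 1 rose. The largest falls at week 6 were those of the mitotic kinase Pbk (-1.83, limma adjusted p = 0.0012) and the cytokinesis motor Kif23 (-1.41, limma adjusted p = 0.0010), with Kif4 (-0.91) and Fzr1, an activator of the anaphase-promoting complex that rose by 0.35, also called. Of 34 other origin licensing and replication genes, 10 rose and 1 fell at week 6, and 13 rose and 0 fell at week 8, shares of rises below those of all genes. Pold1, a polymerase subunit, rose by 0.89 at week 6 (limma adjusted p = 4.0e-08) and by 0.65 after rescaling, the clamp loader gene Rfc2 by 0.52 and 0.28, and the helicase factor Gins1 by 0.74 and 0.51. The rises of Fen1 (0.51) and of the remaining 6 were not called after rescaling at that week.

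Genes that restrain division were mixed, with 7 of 18 higher and 2 lower at week 6 and 9 higher and 2 lower at week 8, near the shares of all genes called higher. The CDK inhibitor gene Cdkn1a, which encodes p21, was at 16.4 to 46.4 TPM in CAC, with a median of 21.1, and at 5.70 to 9.77 TPM in Con at week 6. The arms were apart, with a log2 difference of 1.77 (limma adjusted p = 0.00040; 1.52 after rescaling). Cdkn2d rose by 1.00 and Gadd45g by 1.62, and Ccng1, a p53 target, fell by 0.43. At week 8 the value of Cdkn1a was 1.80, of Cdkn2d 1.18 and of Gadd45g 1.88. After rescaling the list had 4 higher and 4 lower at week 6. Among 14 other G1 and G2 regulators, Myc, a driver of growth and cell cycle entry, rose by 2.49 at week 6 (limma adjusted p = 5.5e-10) and Ccne2 fell by 0.69. At week 8 Myc was at 2.81. At week 6 Myc stood at 3.61 to 7.77 TPM in CAC and 0.714 to 1.34 TPM in Con. Of 17 E2F, DREAM and MuvB factors, 6 rose and 0 fell at week 6, led by Lin37 (0.53), Rbbp4 (0.29), E2f4 (0.34) and E2f5 (0.38), and after rescaling 1 was higher and 1 lower. That share of rises was also below the share over all genes.

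Markers of other cell types were also called in the same hearts, and their part in the results above was not tested. Beside them, 43.4% of all genes were called higher and 5.48% lower at week 6, and 9.84% lower at week 8. All 9 macrophage and monocyte markers rose in CAC against Con at week 6, and their summed level was 91.4 to 151 TPM in Con and 243 to 421 TPM in CAC. After rescaling 8 were called. The macrophage sums were 102 to 146 and 193 to 280 TPM at week 4 and 112 to 157 and 228 to 567 TPM at week 8, apart in each week, while the mitotic sums were apart at weeks 4 and 6. B cell markers fell in 3 of 5 cases at week 6, with sums of 6.20 to 8.85 and 5.20 to 7.29 TPM, and in 5 of 5 at week 8. Of 7 endothelial markers, Kdr (-0.65) and Cdh5 (-0.35) fell and Tek (0.30) rose at week 6, with sums of 222 to 256 TPM in Con and 197 to 257 TPM in CAC. Of 6 fibroblast markers, Dcn and Pdgfra rose, and the sum went from 512 to 603 TPM in Con to 752 to 1179 TPM in CAC. Neutrophil markers rose in 2 of 4 cases, near the share of all genes called higher, with sums of 8.34 to 12.3 and 11.6 to 32.4 TPM. Of the melanocyte markers Mlana rose at week 6, from 0.138 to 0.630 TPM in Con to 1.72 to 4.09 TPM in CAC, while Dct fell and Tyr was listed at 0 TPM in every library of both arms at week 6. The other melanocyte markers of the list, Pmel, Tyrp1, Sox10 and Mitf, are not described here, so Mlana does not stand for the list. Of 3 T and NK cell markers, Cd3e and Trac rose and Nkg7 fell, and of 6 pericyte and smooth muscle markers, Acta2 fell (-0.97). The erythroid genes were uncalled, with sums of 1546 to 4083 TPM in Con and 767 to 2357 TPM in CAC. Of 6 cardiomyocyte markers, 4 rose at week 6, led by Tnnt2 (0.90), and after rescaling 1 was called.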

How the data were processed

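Heart RNA was measured in 62 libraries, of which 61 were used. The authors deposited TPM for 47643 gene symbols, and reads were mapped to mm10, per the submitters' processing notes. The sources used here name no aligner, counting tool or strand setting. Members and gene lists were chosen with earlier results of these data known. Genes with a mean of at least 0.1 TPM over the 61 libraries (15290) were fitted as log2(TPM + 0.1) by limma-trend (R 4.3.3, limma 3.58.1), the 12 groups in 1 fit and 27 comparisons, each adjusted by Benjamini-Hochberg. Since TPM values of a library add up to a fixed total, more of 1 abundant transcript lowers the values of the others. Alternatives were a pseudocount of 1, no filter, at least 1 TPM in at least 5 libraries, median-of-ratios rescaling, a replicate block, only the groups compared, the left-out library kept in, each library left out in turn and, chosen after seeing the data, voom on recovered reads. Reads were recovered from TPM and GENCODE M21 exon lengths, an annotation the authors do not name: 70.5% of values were whole within 0.05 reads, where 10.0% would be by chance. For some members the share of libraries with whole reads was near chance, such as 9.8% for Mki67 and Cenpf and 11.5% for Cdk1. The reads of such members are approximate. Tested on simulated data for CAC against Con at week 6 with 15290 genes, limma recovered 52.2% of 67 genes changed by 0.5 (log2), 80.6% of 67 changed by 1 and all 66 changed by 2. Named genes were 11 fixed members (Mki67, Top2a, Cdk1, Ccna2, Ccnb1, Pcna, Mcm2, Mcm5, Rrm2, Ccnd1, Ccnd2), and in each role the first 3 called by adjusted p or all if 5 or fewer; for other lists up to 4 called by p, or all if 5 or fewer. Other members, Mlana, Dct, Tyr, Cdkn1a at week 8 and the single libraries named were described after their values were seen. Figures were drawn with Python 3.11.15 and matplotlib 3.10.9.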

Additional observations from a re-analysis of the deposited data

Results flagged for a closer look

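Single libraries stood apart from the rest of their group by Dixon's criterion in 8 of 144 groups of values, where chance flags about 1 in 20. NCAC replicate 3 of week 2 was high in Mki67, at 2.06 TPM against 0.446 to 0.839 TPM in the others, and in Top2a, at 1.46 TPM against 0.308 to 0.621 TPM. Con replicate 5 of week 2 was high in Top2a (0.906 TPM against 0.362 to 0.518 TPM), and so was Con replicate 4 of week 4 (1.68 TPM against 0.384 to 0.594 TPM). CAC replicate 2 of week 4 was low in Ccna2, at 0.139 TPM against 0.305 to 0.369 TPM. CAC replicate 3 of week 8 was high in Mcm5 (2.72 TPM against 1.38 to 1.93 TPM) and in Ccnd1 (19.0 TPM against 3.98 to 8.02 TPM). NCAC replicate 1 of week 4 was high in Ccnd1, at 25.9 TPM against 16.3 to 17.6 TPM.

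The difference between CAC and Con changed from week 2 to week 8 in 5 members by limma's interaction test, with adjusted p-values of 0.0038 to 0.048. On the log2 scale the change was -0.71 for Ccnd2, -1.01 for Ccnd1 and -1.70 for Cenpf, and 0.44 for Mcm4 and 0.72 for Tyms. Of the 5, only Ccnd2 was called with any library left out.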

How the results depend on the processing

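Counts below are of members, and the cause of each change was not tested unless said. Median-of-ratios rescaling and voom both gave 1 higher (against 3) in CAC against Con at week 6, 1 (against 4) at week 8, 1 (against 3) in CAC against NCAC at week 6 and 2 (against 5) at week 8. Both gave 2 (against 4) higher in CAC week 8 against week 2, 6 (against 2) lower in CAC against NCAC at week 8, and 1 (against 0) lower for week 8 minus week 4 of CAC against Con; voom gave 1 (against 2) higher for week 8 minus week 2. Signs reversed for Pcna in CAC against Con at week 6 (-0.028 rescaled, -0.031 by voom) and against NCAC (-0.0095 and -0.013), and for Rrm1 against Con at week 6 (-0.00012 and -0.0022) and week 8 (-0.0066 and -0.019) and against NCAC at week 6 by voom (-0.0016). Over all genes, rescaling gave 2629 higher and 2528 lower (against 6637 and 838) in CAC against Con at week 6, 3738 and 3473 (against 6851 and 1504) at week 8, and 953 lower (against 362) at week 4. Against NCAC it gave 1099 lower (against 433) at week 4, 2839 higher and 2790 lower (against 6315 and 1082) at week 6, and 3818 and 3322 (against 7884 and 1278) at week 8. In NCAC against Con at week 8 it gave 458 and 183 (against 50 and 18).

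The filter of 1 TPM in 5 libraries left 21 members to test and so fewer lower calls: 8, 11 and 10 in CAC against Con at weeks 4, 6 and 8 (against 13, 20 and 16), and 9 and 11 against NCAC at weeks 4 and 6 (against 19 and 21); for week 8 minus week 2 it gave 1 higher (against 2). With no filter 8 were lower in CAC against Con at week 4 and 0 higher for week 8 minus week 2. A pseudocount of 1 gave 12 lower in CAC against NCAC at week 4. With only the groups compared, 5 were lower in CAC against Con at week 4, 2 higher at week 8 and 0 higher for week 8 minus week 2, and 1 was lower in CAC against NCAC at week 8 and in CAC week 8 against week 2. Keeping the left-out Con library gave 3 higher and 20 lower in CAC against Con at week 4, 1 higher at week 6, 2 higher at week 8, and 0 higher and 0 lower for week 8 minus week 2; against NCAC it gave 12 lower at week 4, 1 higher at week 6, and 2 higher and 1 lower at week 8, and 2 higher in CAC week 8 against week 2. With it, 7644 genes were called higher in CAC against Con at week 4 (against 1627).

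With a replicate block, 8 and 5 members were lower in CAC against Con at weeks 4 and 8, 1 was higher for week 8 minus week 2 and 1 lower in CAC week 8 against week 2. Deviations of same-numbered libraries correlated at -0.198 to 0.264. In CAC against NCAC, 3 of 5 libraries matched their own number best at week 2 and 0 of 5 at week 6. Correlations over 4 or 5 pairs cannot show whether the numbers pair the samples.

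Leaving out 1 library at a time gave these ranges. In CAC against Con, lower calls were 2 to 14 at week 4 and 6 to 20 at week 8, and higher calls 1 to 4 at week 6 and 2 to 5 at week 8. In CAC against NCAC, lower calls were 11 to 19 at week 4 and 1 to 9 at week 8, and higher calls 0 to 1 at week 4 and 1 to 4 at week 6. Week 8 minus week 2 had 0 to 2 higher and 1 to 3 lower, week 8 minus week 4 had 0 to 1 lower, CAC week 8 against week 2 had 1 to 3 lower, and NCAC against Con at week 8 had 0 to 1 lower. Of the members called, 2 of 13 at week 4, 18 of 23 at week 6 and 8 of 20 at week 8 were called in CAC against Con with any library left out. For week 8 minus week 2 it was 1 of 5. Depth limits the mitotic members most, since several had under 10 reads in CAC libraries.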
